A study of Homo sapiens with 4 samples.

Results

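The genes described here are those of heme breakdown: the heme oxygenases HMOX1 and HMOX2 and the biliverdin reductases BLVRA and BLVRB. Every probe whose RefSeq accession belongs to 1 of these genes was taken, which gave 5 probes for 4 genes, out of 27210 probes for 18203 named genes on arrays of 41000 probes. HMOX2 has 2 probes, the other genes have 1 each, and the HMOX1 probe is printed at 10 spots of the array while the others have 1 spot.

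Heme oxygenases open the heme ring and release biliverdin, carbon monoxide and iron, and biliverdin reductases then reduce biliverdin to bilirubin. HMOX1 is the inducible heme oxygenase and HMOX2 the constitutive one. In cells given heme, the repressor BACH1 leaves the Maf recognition elements upstream of HMOX1, and NRF2 (gene NFE2L2), paired with a small Maf protein such as MAFK, can bind there and raise transcription.

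The study asked whether Arp5 and Arp8, actin-related proteins of the INO80 chromatin remodeling complex, take part in the induction of HMOX1 by heme. RNA of 4 samples of the human pre-B leukemia line Nalm-6 was measured on 4 one-colour arrays, 1 array for each of wild-type cells (WT), Arp5 knockout cells (Arp5 KO), Arp8 knockout cells (Arp8 KO) and a culture whose label gives Arp8 overexpression (Arp8 OE). Per the treatment protocol, heme was present at 20 uM for 12 hours. No WT array without heme is in this set, so weaker induction of HMOX1 and a lower level before heme cannot be told apart from these arrays. By quantitative PCR, the study reported HMOX1 moderately lower in both knockouts without hemin, and much lower than in wild-type cells with it. Each group is a single sample, so no test between groups was possible and every difference below has no replicate check.

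The Arp5 KO cells are an established line in which both alleles of ARP5 had been disrupted with targeting vectors, and the Arp8 KO cells had been made by a similar protocol. The study states that conditional knockout of Arp8 is lethal to cells, while Arp5 KO cells grow slightly more slowly than WT. Whether the Arp8 KO sample is of that conditional kind is not given here. The part of growth or survival in the differences was not tested. How Arp8 OE cells were made is not given in the sources used here. The labels disagree on the treatment of the knockouts. The titles and the protocol give heme for all 4 samples, the treatment field gives no heme for both knockouts, and the source name gives heme for Arp8 KO but not for Arp5 KO. If the knockouts had no heme, their difference from WT holds both the genotype and the treatment, and these cannot be told apart here. WT and Arp8 OE are labelled as treated in every field.

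Levels are log2 of the background-subtracted signal of a probe relative to the 75th percentile of its array, so a level of 0 equals that percentile. The percentile ranged from 647.4 to 739.6 intensity units, 55.8% to 57.4% of probes were well above background by the scanner software, and no spot was saturated. The arrays share 1 slide and 1 scan time. ACTR5, the gene of Arp5, was 19.3-fold below WT in Arp5 KO (log2 difference -4.27, and -2.79 with the normexp background correction described below). ACTR8, the gene of Arp8, was lower in Arp8 KO by 1.44-fold and 1.6-fold on its 2 probes, and whether these lie in the disrupted part is not given. On the array labelled Arp8 OE both ACTR8 probes stood at the level of WT (log2 differences 0.02 and -0.01), so these probes did not show the overexpression its label gives. Whether they would read the RNA of the overexpressed form is not given. All 10 precursor B cell markers, such as VPREB1 and PAX5, were well above background on all 4 arrays, with summed levels of 318 to 402 times the 75th percentile. Of 5 erythroid markers, 0 were well above background in WT and at most 2 elsewhere, with HBB, HBG1 and ALAS2 not well above background on any array. Of 5 monocyte and macrophage markers 2 or 3 were well above background (summed level 0.706 to 0.965), highest in WT and lowest in Arp8 KO, and of 3 T cell markers at most 1 was (0.0534 to 0.0785). The part of these markers in the results was not tested.

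Upstream sequences are given for the genes that stood closer to WT than HMOX1, BLVRA and BLVRB because both were lower in Arp8 KO and HMOX2 because it was not. The RefSeq promoter table (GRCh38.p14) held BLVRA, BLVRB and 2 start sites of HMOX2, and no HMOX1 entry. The 250 bases before the start of each gene are given 5′ to 3′ on the strand of the gene, with GC boxes (GGGCGG or its reverse complement) and CCAAT boxes (CCAAT or its reverse complement) in capitals.
BLVRA, chr7:43758430-43758679, plus strand: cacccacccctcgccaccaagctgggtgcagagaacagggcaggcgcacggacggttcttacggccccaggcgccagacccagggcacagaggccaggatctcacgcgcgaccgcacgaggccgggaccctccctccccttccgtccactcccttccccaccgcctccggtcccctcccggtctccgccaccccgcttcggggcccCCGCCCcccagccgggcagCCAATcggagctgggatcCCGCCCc
BLVRB, chr19:40465746-40465995, minus strand: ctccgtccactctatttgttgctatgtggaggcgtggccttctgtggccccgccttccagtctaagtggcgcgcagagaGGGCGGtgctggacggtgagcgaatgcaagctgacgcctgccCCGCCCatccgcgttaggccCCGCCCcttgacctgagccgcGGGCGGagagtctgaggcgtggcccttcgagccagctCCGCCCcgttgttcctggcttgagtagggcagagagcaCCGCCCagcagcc
HMOX2, first start site, chr16:4474486-4474735, plus strand: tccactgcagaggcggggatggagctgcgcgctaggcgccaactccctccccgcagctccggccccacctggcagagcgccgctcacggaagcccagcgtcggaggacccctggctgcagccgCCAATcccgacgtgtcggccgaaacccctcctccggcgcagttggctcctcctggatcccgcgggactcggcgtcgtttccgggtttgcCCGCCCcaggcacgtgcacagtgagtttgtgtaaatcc

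BLVRB held 6 GC boxes and no CCAAT box in this window, BLVRA held 2 GC boxes and 1 CCAAT box, and HMOX2 held 1 of each. A GC box was present in 42.6% and a CCAAT box in 32.0% of all 35116 promoters of this length. The core of the antioxidant response element, TGACNNNGC, which NRF2 with a small Maf binds, had no match on either strand in these windows, nor had the core of the Maf recognition element, TGAGTCA, whose matches can overlap those of the former, or the TATA box TATAAA. Among all promoters, 10.9%, 4.2% and 10.7% held them. The search covered these letters in these windows only. The 3 windows are rich in G and C (74.4% in BLVRA, 67.2% in BLVRB, 69.6% in HMOX2), against a median of 58.0%. The window before the second HMOX2 start, chr16:4495608-4495857, had 39.6% G and C and none of the motifs.

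HMOX1 was the only gene of heme breakdown that differed from WT by over 2-fold, and it was lower on all 3 other arrays. In WT its 10 spots read from 498.5 to 531.1 intensity units, with a median of 522.2. In Arp5 KO the 9 usable spots read 60.9 to 74.9 (median 65.3), and in Arp8 KO the 10 spots read 54.5 to 71.2 (median 60.3). In Arp8 OE the 10 spots read 104.5 to 113.5, with a median of 109.9. The spots of WT lay far above those of every other array, the spots of Arp8 OE lay between, and those of both knockouts overlapped. The tenth spot of Arp5 KO, at 127.8, was marked as an outlier by the scanner software and lies beside a spot that was bright on that array alone.

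**Figure D1:**
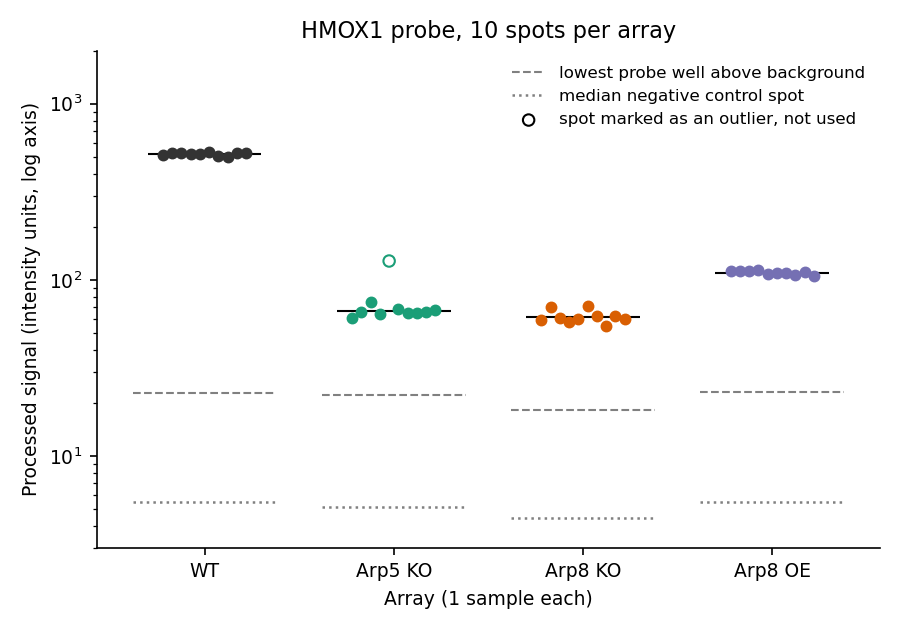
Processed signal of the 10 spots of the HMOX1 probe on each array, in intensity units on a log axis. Points are spots, the solid bar is their geometric mean, the open circle is the unused outlier spot of Arp5 KO at 127.8, the dashed line is the lowest signal of any probe well above background, and the dotted line the median negative control. WT spots sit near 522.2, and the knockout spots sit below every Arp8 OE spot apart from the outlier.

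HMOX1 stayed measurable everywhere. All 10 spots were well above background on each array, and the mean signal was 22.7 times the lowest probe well above background in WT, 4.77 times in Arp8 OE, 3.37 times in Arp8 KO and 2.98 times in Arp5 KO. The level was -0.51 ± 0.03 in WT (SD, n = 10 spots), -3.48 ± 0.08 in Arp5 KO (SD, n = 9 spots), -3.42 ± 0.12 in Arp8 KO (SD, n = 10 spots) and -2.56 ± 0.04 in Arp8 OE (SD, n = 10 spots). These SDs hold the printing and reading of spots and not the spread between cultures.

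HMOX1 in Arp5 KO was 7.88-fold lower than in WT, a log2 difference of -2.98 ± 0.08 (SD, n = 9 spot positions), and each position was over 2-fold lower. It was 7.52-fold lower in Arp8 KO, a log2 difference of -2.91 ± 0.10 (SD, n = 10 positions). On the array labelled Arp8 OE it was 4.16-fold lower, a log2 difference of -2.06 ± 0.04 (SD, n = 10 positions). The knockouts thus read 12.7% and 13.3% of the WT level and Arp8 OE 24.1%. In RNA of whole cultures, fewer HMOX1-expressing cells and less HMOX1 RNA per cell cannot be told apart.

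The fold depends on the background correction. With normexp, which models the local background and adds an offset of 50, the log2 differences from WT were -2.08 for Arp5 KO and -2.00 for Arp8 KO, with -1.53 for Arp8 OE. All 3 stayed past 2-fold. With the outlier spot kept, the difference in Arp5 KO was -2.88.

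Few probes were as low as HMOX1. In Arp5 KO 55 of 24285 tested probes (0.226%) had as low a difference from WT, in Arp8 KO 92 of 24578 (0.374%) and in Arp8 OE 144 of 24177 (0.596%), HMOX1 itself included. A probe was tested if at least 1 of the compared arrays had it well above background. Among probes that were well above background on the pair of arrays, 8 of 22555 were lower than HMOX1 in Arp5 KO, 14 of 22400 in Arp8 KO and 22 of 22154 in Arp8 OE. Over the 4 arrays HMOX1 spanned 2.98 on the log2 scale, and 0.124% of the 21783 probes well above background on all arrays spanned as much.

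Between the 3 arrays below WT, HMOX1 differed less. Its level in Arp5 KO was 1.9-fold below Arp8 OE (log2 difference -0.92 ± 0.10, SD, n = 9 positions) and that in Arp8 KO 1.81-fold below Arp8 OE (-0.86 ± 0.12, SD, n = 10 positions). Both differences exceeded 2 technical SDs, that is 2 times the SD between spots. With normexp they were -0.55 and -0.48. Of the positions, 2 of 9 and 1 of 10 were over 2-fold lower. Arp8 KO and Arp5 KO differed by 0.07 ± 0.13 (SD, n = 9 positions), within the spread of the spots. Of all tested probes, 6.1% differed as far between Arp5 KO and Arp8 OE, and 7.67% between Arp8 KO and Arp8 OE. On these single arrays the levels ran from WT to Arp8 OE to both knockouts, with no order between the knockouts. The SD between spots does not show whether that order would hold between cultures.

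HMOX2, the constitutive heme oxygenase, differed from WT by at most 1.2-fold on both probes and all arrays. Its probe A_23_P100501 read 4773 units for WT, 5310 for Arp5 KO and 4726 for Arp8 KO, with 3847 for Arp8 OE, which are scaled levels of 2.70, 2.84, 2.85 and 2.57. Its probe A_24_P381945 read 725.0, 840.8, 777.5 and 745.1 units in the same order, which are scaled levels of -0.02, 0.19, 0.25 and 0.20. Probes with 1 spot have no SD of their own, so the SD of the log2 difference of a single spot, taken from the probes printed 10 times, was set beside them (0.080 to 0.086 over the comparisons).

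On A_23_P100501, HMOX2 differed from WT by 0.15 for Arp5 KO and 0.15 for Arp8 KO, with -0.13 for Arp8 OE, all within 2 technical SDs. On A_24_P381945 the log2 differences were 0.21, 0.27 and 0.22, each larger than 2 technical SDs. The probes thus had opposite signs in Arp8 OE, and their mean there was 0.05. Differences of these sizes were common: 74.2% and 76.4% of probes spanned as wide a range over the 4 arrays as the HMOX2 probes did.

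BLVRA, which reduces biliverdin to bilirubin, was lower in Arp8 KO and, less so, in Arp8 OE, and stood near WT in Arp5 KO. Its probe read 9955 units for WT, 10530 for Arp5 KO and 5937 for Arp8 KO, with 7313 for Arp8 OE, which are scaled levels of 3.76, 3.83, 3.18 and 3.50. The log2 differences from WT were 0.07 for Arp5 KO and -0.58 for Arp8 KO, with -0.26 for Arp8 OE. The latter pair exceeded 2 technical SDs and the first did not. In Arp8 KO, 11.3% of tested probes were as low against WT as BLVRA, and in Arp8 OE 21.3% were.

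BLVRB, which acts on other biliverdin isomers and on flavins, had the same order of Arp8 arrays. Its probe read 5084 units for WT, 5105 for Arp5 KO and 2693 for Arp8 KO, with 3883 for Arp8 OE, which are scaled levels of 2.79, 2.79, 2.04 and 2.58. On these single spots WT and Arp5 KO read alike, Arp8 OE read lower and Arp8 KO lowest. The log2 differences from WT were 0.00 in Arp5 KO, -0.75 in Arp8 KO (1.68-fold lower) and -0.21 in Arp8 OE, the latter pair over 2 technical SDs. In Arp8 KO, 7.63% of tested probes were as low as BLVRB.

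The reductases also separated the knockouts from each other. Arp8 KO was below Arp5 KO by 1.57-fold for BLVRA (log2 difference -0.65) and by 1.68-fold for BLVRB (-0.75), where HMOX1 differed by 1.05-fold. Arp8 KO was below Arp8 OE by 1.25-fold for BLVRA (-0.32) and 1.46-fold for BLVRB (-0.55). All 4 reductase differences exceeded 2 technical SDs, and 6.48% and 5.14% of tested probes were as low in Arp8 KO against Arp5 KO. Against Arp8 OE these shares were 19.8% and 10.4%. The median absolute log2 difference of Arp8 KO over all tested probes was 0.221 against Arp5 KO and 0.245 against Arp8 OE. None of the 4 single-spot probes of HMOX2, BLVRA and BLVRB lies beside a spot that was bright on 1 array alone. Under normexp, BLVRA and BLVRB differed from WT in Arp8 KO by -0.63 and -0.70.

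**Figure D2:**
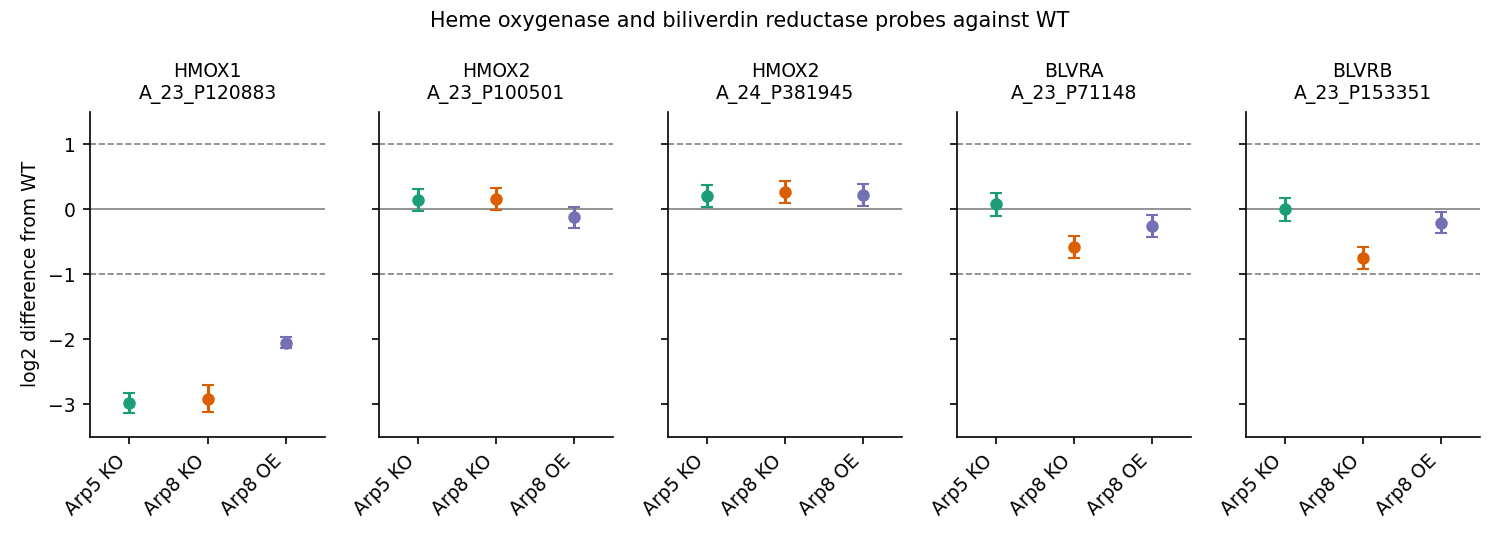
Log2 difference from WT of each heme breakdown probe on each of the 3 other arrays. Points are single differences, error bars are 2 technical SDs (over spot positions for HMOX1, from the probes printed 10 times for the others), and dashed lines mark 2-fold. HMOX1 sits at -2.98, -2.91 and -2.06, while the other probes lie between -0.75 and 0.27.

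Of the 5 probes, 1 was past 2-fold against WT in Arp5 KO, where 3.7% of all tested probes were past 2-fold and 2.01% in the lower direction. In Arp8 KO it was again 1 of 5, against 7.71% of tested probes (4.35% lower), and in Arp8 OE 1 of 5, against 5.11% (2.15% lower). Each time the probe was that of HMOX1. None of the 5 was past 2-fold in Arp5 KO against Arp8 OE (5.36% of tested probes), in Arp8 KO against Arp8 OE (5.43%) or in Arp8 KO against Arp5 KO (5.71%). The comparisons with WT share the WT array.

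**Figure D3:**
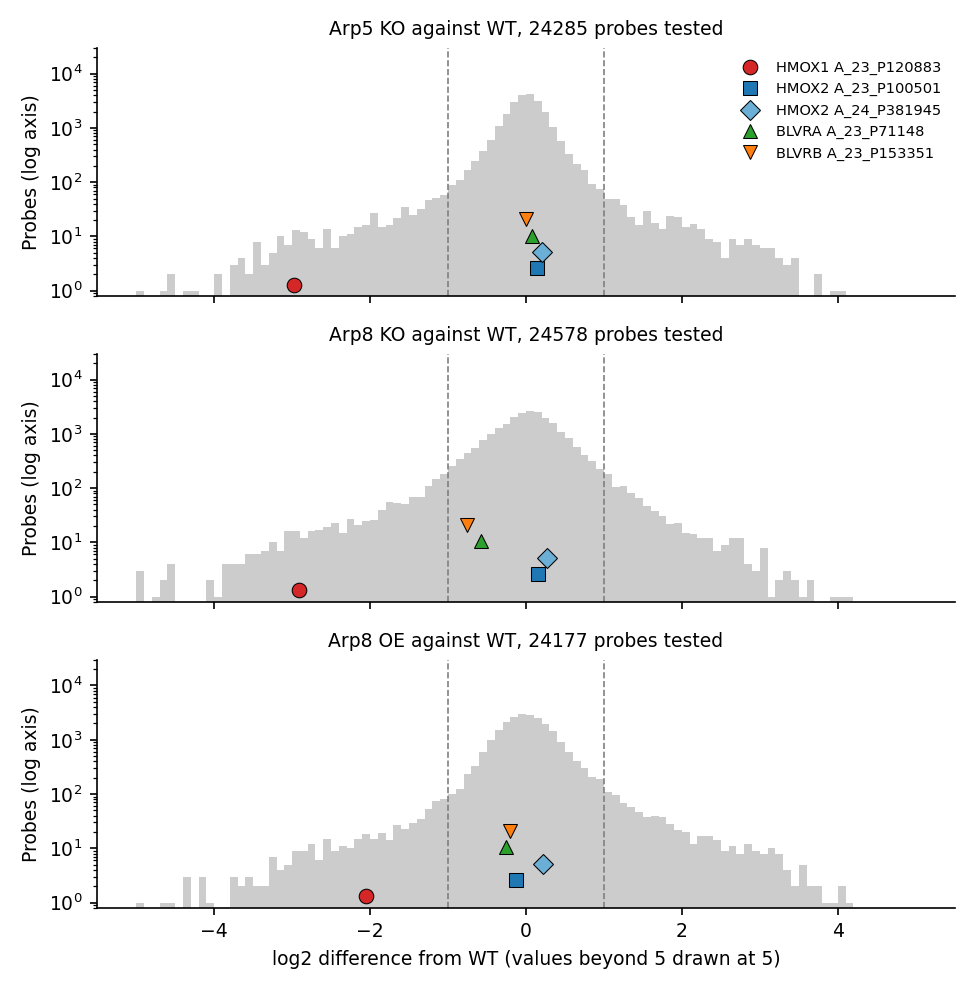
Distribution of the log2 differences from WT over all tested probes on each of the 3 other arrays, as numbers of probes on a log axis in bins of the log2 difference, with the 5 heme breakdown probes as coloured symbols whose height has no meaning. Dashed lines mark 2-fold. HMOX1 lies in the lower tail of each panel, where 0.226%, 0.374% and 0.596% of probes were as low, and the other symbols lie within 2-fold.

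HMOX1 was also set against the other steps within each array, where the scaling between arrays cancels. The ratio of HMOX1 to HMOX2 was lower than in WT by 8.72-fold or 9.08-fold in Arp5 KO, 8.35-fold or 9.04-fold in Arp8 KO and 3.8-fold or 4.85-fold in Arp8 OE, by the HMOX2 probe used. The ratio of HMOX1 to BLVRA was lower by 8.28-fold, 5.03-fold and 3.47-fold on the same arrays. The ratio of HMOX1 to BLVRB was lower by 7.87-fold, 4.46-fold and 3.6-fold. HMOX1 was therefore unequal to each of the other 3 genes on every array below WT, and the gap to the reductases was narrower in Arp8 KO than in Arp5 KO.

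The genes around heme breakdown were taken as 4 lists. The first holds 18 genes that supply, carry or clear heme and its products, of which POR and UGT1A1 had no probe by that symbol and were not analysed here. Another 4 (FLVCR2, CD163, HPX and SLC40A1) did not stand well above background anywhere. The 21 tested probes of the remaining 12 genes had a median log2 difference from WT of -0.09 for Arp5 KO and -0.38 for Arp8 KO, with -0.28 for Arp8 OE, beside 0.00, 0.03 and 0.00 over all tested probes. Of the 21 probes, 5 are of FTH1 and 3 of FTL, so these medians weigh ferritin more than the other genes. Past 2-fold were 0 probes in Arp5 KO, 4 in Arp8 KO, all lower and all of 1 gene, and 0 in Arp8 OE, where 3.7%, 7.71% and 5.11% of all tested probes were.

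The 4 probes are of FTH1, the ferritin heavy chain that stores the iron released from heme. FTH1 was 3.27-fold to 3.77-fold lower in Arp8 KO on them (log2 differences -1.71 to -1.91). Their log2 differences from WT were -0.27 to -0.38 in Arp5 KO and -0.79 to -0.92 in Arp8 OE. The fifth probe, A_32_P342064, which lies beside a spot bright on 1 array alone, gave 0.22, -0.70 and 0.05. FTH1 has near-identical processed copies in the genome, and its probes may share their signal. FTL, the ferritin light chain, was lower in Arp8 KO on all 3 probes (-0.49, -0.56 and -0.53), with -0.15 to -0.19 in Arp5 KO. SLC48A1, a heme transporter, gave 0.02 for Arp5 KO and -0.12 for Arp8 KO, with -0.28 for Arp8 OE. Ferritin thus stood lower in Arp8 KO than in Arp5 KO, as BLVRA and BLVRB did.

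Of the 9 genes of heme synthesis 1 had a probe past 2-fold, in Arp8 KO, where 7.71% of all tested probes were. ALAS2, the erythroid first enzyme, was not well above background, and the 12 tested probes of the other 8 had medians of 0.00, -0.01 and -0.05 in the order Arp5 KO, Arp8 KO, Arp8 OE. In Arp8 KO the probes ran both ways, from -1.03 to 0.57. ALAS1, the first enzyme of the pathway outside erythroid cells, differed from WT by -0.17 to 0.09 over its 2 probes and the 3 arrays. The probe past 2-fold was 1 of FECH, the last enzyme of the pathway, which inserts iron. It was 2.04-fold lower in Arp8 KO (log2 difference -1.03, and -0.95 with normexp). The other FECH probe, which is dim, gave 0.02 there. ALAD, which makes porphobilinogen, gave -0.73 on 1 probe and 0.18 on the other in Arp8 KO. UROS, which forms uroporphyrinogen, gave 0.57 there.

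The regulators of HMOX1 were measured on 18 tested probes of 11 genes, with medians of 0.03, 0.11 and -0.08. BACH1, the repressor, differed from WT by 0.05 for Arp5 KO and 0.04 for Arp8 KO, with 0.18 for Arp8 OE on the brighter probe. Its other probe, with a WT level of -4.73 and beside a spot bright on 1 array alone, gave 1.82 in Arp5 KO, and 0.50 with normexp. NFE2L2, which encodes the activator NRF2, gave -0.16, -0.13 and -0.25. MAFK, its small Maf partner, gave over its 2 probes 0.07 and 0.08 for Arp5 KO, 0.32 and 0.54 for Arp8 KO, and -0.09 and -0.07 for Arp8 OE. MAFG, another small Maf, was lower on both probes, with -0.39 and -0.33 for Arp5 KO, -0.91 and -0.73 for Arp8 KO, and -0.34 and -0.18 for Arp8 OE. The second of these probes lies beside a spot bright on 1 array alone. MAFF, also a small Maf, was dim in WT (level -3.37) and gave -0.91 in Arp5 KO and -0.45 in Arp8 OE, and in Arp8 KO it was not well above background and at least 3.46-fold lower than WT. SMARCA4 gave over its 3 probes 0.02, 0.50 and -0.07 for Arp5 KO, and 0.36, 0.82 and 0.17 for Arp8 KO. In Arp8 OE they gave 0.28, 0.745 and 0.05. The highest of the 3 NFE2L1 probes gave 0.65 in Arp8 KO, and BACH2 gave 0.56 in Arp8 OE. Over the 18 tested probes the differences from WT ran from -0.91 to 1.82 in Arp5 KO and -1.79 (a bound) to 0.82 in Arp8 KO. In Arp8 OE they ran from -0.45 to 0.745. On these arrays 8, 7 and 10 of the 18 probes were below 0. The part of these regulators in the HMOX1 levels was not tested. RNA levels say nothing of the amount or binding of these proteins.

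Other genes that BACH1 represses or NRF2 activates were lower than WT as a list. The 9 tested probes of 7 genes had medians of -0.66 for Arp5 KO (-0.36 with normexp) and -0.77 for Arp8 KO, with -0.33 for Arp8 OE. All 9 were below 0 in both knockouts and 8 of 9 in Arp8 OE, where of all tested probes 49.3%, 47.3% and 50% were below 0 in Arp5 KO, Arp8 KO and the Arp8 OE array. Past 2-fold lower were 2 probes for Arp5 KO and 4 for Arp8 KO, with 1 for Arp8 OE, from 1, 3 and 1 genes, where 2.01%, 4.35% and 2.15% of all tested probes were, and none was past 2-fold higher. In Arp8 KO 1 of the 4 passed by a bound. These genes were listed with earlier results of these data known, and the comparisons share the WT array.

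SLC7A11, the cystine transporter, had levels of -0.68 for WT, -2.74 for Arp5 KO and -4.01 for Arp8 KO, with -0.68 for Arp8 OE on A_32_P165477. The log2 difference from WT was -2.06 for Arp5 KO (4.16-fold lower), -3.33 for Arp8 KO and 0.00 for Arp8 OE. A_32_P42684 gave -2.06 in Arp5 KO and -0.22 in Arp8 OE, and was at least 11.1-fold below WT in Arp8 KO, where it was not well above background. The third probe, A_24_P200420, gave only bounds, at least 1.58-fold, 1.7-fold and 1.33-fold lower than WT on the 3 arrays. SLC7A11 was thus past 2-fold lower on 2 probes in the knockouts and on none in Arp8 OE, where HMOX1 was 4.16-fold lower.

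NQO1, a quinone reductase, had levels of -1.45 for WT, -2.12 for Arp5 KO and -3.30 for Arp8 KO, with -3.13 for Arp8 OE. It was lower than WT by 1.59-fold, 3.62-fold and 3.22-fold. GCLM, the modifier subunit of the first enzyme of glutathione synthesis, had levels of 2.29 for WT, 1.64 for Arp5 KO and 1.03 for Arp8 KO, with 1.47 for Arp8 OE, which is 1.58-fold, 2.4-fold and 1.77-fold lower. NQO1 and GCLM were lower in Arp8 KO than in Arp5 KO, whereas HMOX1 had no order between the knockouts. For NQO1, Arp8 KO and Arp8 OE were close (log2 difference -0.17). With normexp the log2 differences from WT shrank to -1.15 in Arp8 KO and -1.06 in Arp8 OE for NQO1, and to -2.11 in Arp8 KO for SLC7A11 on A_32_P165477 and -1.22 in Arp5 KO on A_32_P42684, all still past 2-fold. GCLC, TXNRD1 and SQSTM1, also of this list, stayed within 2-fold of WT on each array.

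**Figure D4:**
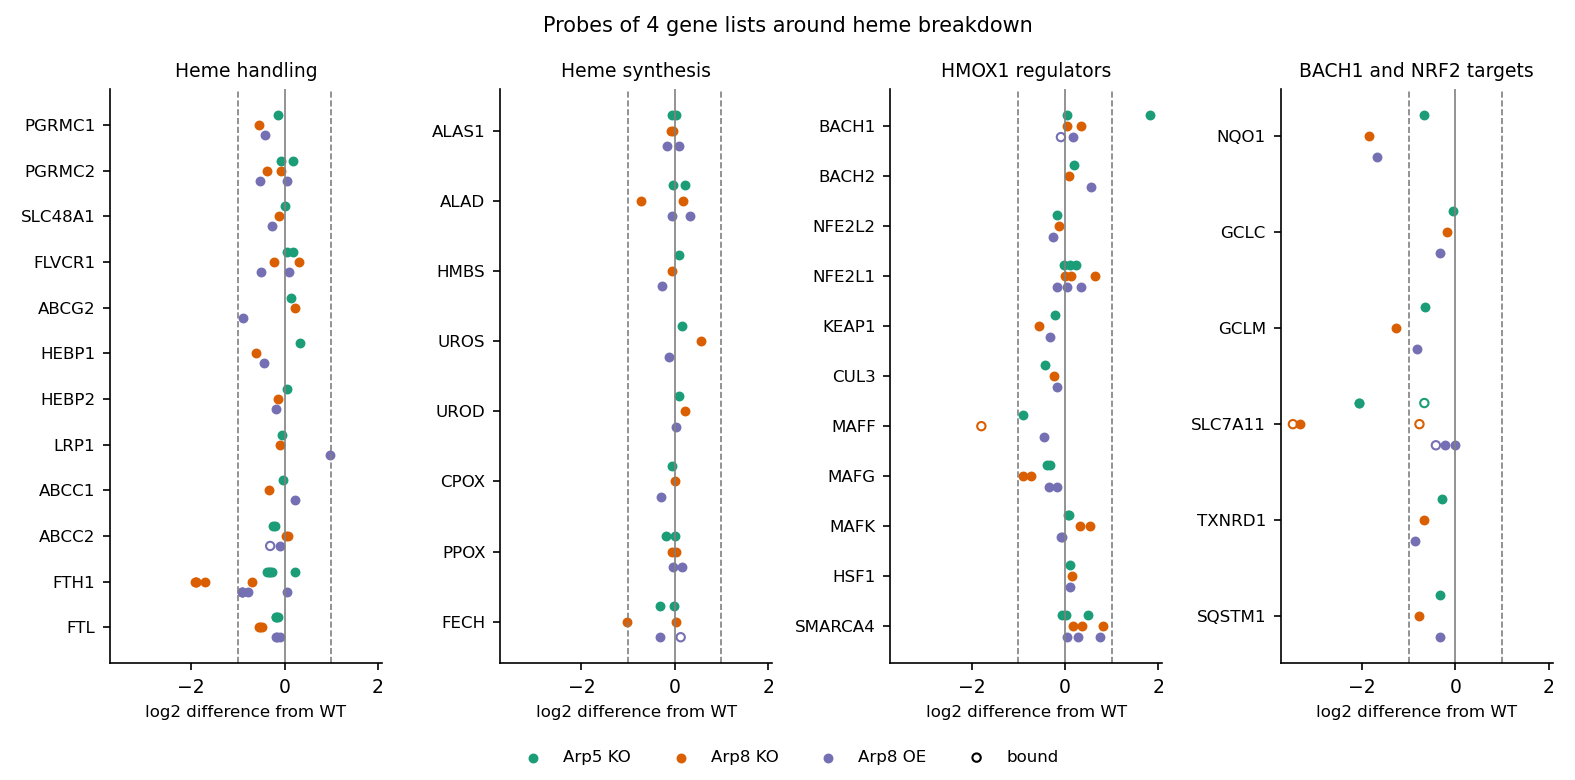
Log2 difference from WT of the tested probes of the 4 gene lists, with 1 gene not drawn, 1 row per gene and 1 point per probe, for Arp5 KO, Arp8 KO and Arp8 OE. Dashed lines mark 2-fold, and open circles are bounds, where 1 of the arrays did not have the probe well above background. The FTH1 probes near -1.9 in Arp8 KO and the SLC7A11, NQO1 and GCLM probes are the measured lower values past 2-fold, apart from 1 FECH probe at -1.03.

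The genes with the pattern most like that of HMOX1 were ranked by the Euclidean distance between the 3 log2 differences from WT, over 16576 named probes well above background on all 4 arrays. The nearest were CACNA1H, a calcium channel subunit (distance 0.75), KMT2C, a histone methyltransferase (0.81), SC5D, a sterol desaturase (0.82), TRIM62 (0.97) and ANKRD44 (1.08). Each of these 5 probes has 1 spot and lies beside a spot that was bright on the WT array alone, as 3.52% of the 40736 single-spot probes do. Other probes of KMT2C, SC5D and TRIM62 did not show the pattern, with log2 differences of -0.11 to 1.37. With normexp the log2 differences of the 5 from WT were -0.95 to -1.44. The part of the neighbouring spots in these values was not tested.

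After the data were seen, the ranking was repeated without spots beside a spot bright on 1 array alone, which left 14443 probes. The nearest were then GZMA, a protease of cytotoxic granules (1.24), TNF, a cytokine (1.36), DMKN (1.37), HSPA1A, a heat shock protein (1.5), and SV2B (1.56). GZMA had levels of 0.74 for WT, -1.17 for Arp5 KO and -2.21 for Arp8 KO, with -0.68 for Arp8 OE. HSPA1A had levels of -0.35, -3.01, -2.96 and -0.96 in the same order, low in both knockouts and closer to WT in Arp8 OE. Its 2 other probes gave -1.17 to -1.24 in the knockouts and -0.82 to -0.84 in Arp8 OE, and HSPA1A has a near-identical copy with which its probes may share signal. The second TNF probe gave -1.20 in Arp5 KO and bounds elsewhere. With normexp the differences of these 5 probes from WT were -0.51 to -2.53. HMOX1 itself kept its differences without its 2 spots beside such a spot (-2.98 for Arp5 KO and -2.93 for Arp8 KO, with -2.05 for Arp8 OE).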

How the data were processed

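RNA of 4 samples of Nalm-6 cells were compared by the genotype in the labels, with 1 array per group. The deposited scanner files hold spot intensity which, per the file headers, came from version 10.10.1.1 of Agilent Feature Extraction, background-subtracted and not normalized between arrays. The series matrix that the authors deposited gives these intensities times 1 factor per array (1.99 to 2.29) and served as an alternative.

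A level is the log2 ratio of a processed signal to the 75th percentile of non-control spots on its array. Outlier spots (69 to 76 per array) were left out, spots of a probe were averaged, and a probe counted as well above background if at least 50% of its spots did. A dim value was raised to the lowest value among probes well above background, which makes its difference a bound. Spots within 20 pixels were neighbours, and a neighbour counted as bright if 1 array had it over 2-fold above the 3 others. Precision is limited by having 4 arrays.

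Of 41000 probes, 27210 (66.4%) matched a symbol in the RefSeq table of GRCh38.p14. The file headers name hg19, so no probe coordinates are given. No test was possible with 1 array per group. The technical SD came from those of the 264 probes printed 10 times that were well above background, 179 to 184 per array. For HMOX1 the SD over its own spot positions was used. The steps were tested on simulated data. Python 3.11.15, numpy 2.4.6 (quantile normalization), pandas 2.3.3, R 4.3.3 and limma 3.58.1 (normexp) were used.

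Named were all probes of the 4 genes, ACTR5 and ACTR8, 7 genes of the lists whatever their values (POR, SLC48A1, FTH1, FTL, BACH1, NFE2L2 and MAFK), list genes past 2-fold against WT, and the 5 genes nearest to HMOX1. FLVCR2, CD163, HPX, SLC40A1, ALAS1, ALAS2, ALAD, UROS, MAFF, MAFG, SMARCA4, NFE2L1, BACH2, GCLC, TXNRD1, SQSTM1 and the 5 genes of the repeated ranking fall outside this rule and were named after their values were seen. 1 list gene counts in its list and is not reported here by itself. The genes and lists were chosen with earlier results of these data known. Alternatives tried were quantile normalization, scaling to the median, normexp with an offset of 50, the series matrix, no filter and no floor, outlier spots kept, no spots beside a bright spot, the mean over a gene's probes, probes kept only if well above background on each compared array, and thresholds of 1.5-fold and 4-fold.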

Additional observations from a re-analysis of the deposited data

How the results depend on the processing

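No paired analysis was possible because each group had 1 array. Of 990 values recomputed under the alternatives, 922 moved by less than the technical SD (counts by less than 1.5 times), 68 moved by more, and 0 called values changed sign. HMOX1 moved with normexp to -2.08 in Arp5 KO against WT, -2.00 in Arp8 KO against WT, -1.53 in Arp8 OE against WT, -0.55 in Arp5 KO against Arp8 OE and -0.48 in Arp8 KO against Arp8 OE. With outlier spots kept it was -2.88 in Arp5 KO against WT and -0.83 in Arp5 KO against Arp8 OE, and with quantile normalization -2.11 in Arp8 OE against WT. At 1.5-fold, 2 probes of heme breakdown were past the threshold in Arp8 KO, HMOX1 and BLVRB. Of 96 recomputed HMOX2 values 7 moved, by up to 0.18, and of the 42 of BLVRA and the 42 of BLVRB none did. None of these came past 2-fold. Without a filter and floor the median of all probes shifted by up to -0.17, in Arp8 KO against Arp8 OE. The cause of these moves was not tested. Signal over background limits HMOX1 in the knockouts, where it lay 2.98 and 3.37 times above the lowest probe well above background.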
